A study of Mus musculus with 8 samples.

Results

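Marginal zone B cells (MZBs) are splenic B cells held at the border of the white pulp, where blood-borne antigen arrives. The genes described here are 6 transcripts known from these cells: Cr2, Cd1d1, Cd36, Plac8, Tm6sf1 and Cd55. They were taken by symbol from a table of 23997 genes, and all 6 were found in it. All 6 also passed the minimum of 100 fragments in the higher column, as did 9582 genes in all. The label calls them surface genes. That holds for CD21, CD1d, CD36 and CD55, whereas PLAC8 is a small cysteine-rich intracellular protein and TM6SF1 is a multi-pass membrane protein placed in lysosomes.

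The series compared MZBs of C57BL/6 mice labelled ACKR3+ with MZBs labelled ACKR3-, 4 libraries each, with both groups of the same strain and cell type and no treatment named. ACKR3 is an atypical receptor for the chemokine CXCL12. The titles name the groups by GFP, and the labels do not say what drives it, how the cells were sorted or how old the mice were. The table gives 1 estimated fragment count and 1 variance per gene for each of 2 conditions, q1 and q2. No header or label ties q1 or q2 to ACKR3+ or ACKR3-, so every direction below is by column name. Ackr3 itself had 1030 ± 100.1 fragments in q1 against 149 ± 23.7 in q2, a log2 ratio of -2.78 ± 0.27 that ranked 2 of 9582 toward q1, and no group is assigned to a column from this value. The spread between mice is not visible in 1 value per condition, and no p-value is given. The column totals were 16877559 fragments for q1 and 16653774 for q2, and the median log2 ratio of q2 over q1 over the 9582 genes was 0.00. Values after ± are 1 SD from the deposited variance. Because RNA was measured in bulk, fewer cells of a type and less RNA per cell cannot be told apart.

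CD21 binds fragments of complement C3 on antigen and, in a coreceptor complex that includes CD81, lowers the threshold of the B cell receptor. High CD21 together with high CD1d is the usual surface definition of MZBs. CD1d presents lipid antigens to NKT cells, CD36 is a scavenger receptor for oxidised lipids and fatty acids, and CD55 (decay-accelerating factor) is a GPI-anchored protein that dismantles complement convertases on the cell's own surface. In the mouse the Cr2 gene encodes both CD21 and CD35 by alternative splicing, so its fragments are the sum of both forms.

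Promoter sequences from RefSeq (GRCm38.p6) were matched for 4 of the 6 genes: Cr2, Cd36, Plac8 and Cd55. They are shown so that the sequence of Cd55, which was higher in q2, can be read beside those of members higher in q1. Each run covers the bases before a start site, 5′ to 3′ on the gene's strand, 250 bases for Cr2, Cd36 and Cd55. For Plac8 it covers the first 210 of those bases, which lie outside its annotated exons. Cd36 has further start sites upstream that are not shown. Capitals mark 4 motifs searched on both strands: the RBPJ core TGGGAA (RBPJ is the DNA-binding partner of Notch), the octamer ATGCAAAT (bound by OCT factors), the CCAAT box CCAAT and the GC box GGGCGG (reverse strand CCGCCC). No 2 marked motifs overlap.
Cr2, chr1:195176720-195176969, minus strand: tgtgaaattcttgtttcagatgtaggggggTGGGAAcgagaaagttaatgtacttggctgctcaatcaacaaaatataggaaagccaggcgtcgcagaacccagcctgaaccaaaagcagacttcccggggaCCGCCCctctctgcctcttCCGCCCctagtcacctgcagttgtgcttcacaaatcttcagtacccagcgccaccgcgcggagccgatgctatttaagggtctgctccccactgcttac
Cd36, chr5:17835897-17836146, minus strand: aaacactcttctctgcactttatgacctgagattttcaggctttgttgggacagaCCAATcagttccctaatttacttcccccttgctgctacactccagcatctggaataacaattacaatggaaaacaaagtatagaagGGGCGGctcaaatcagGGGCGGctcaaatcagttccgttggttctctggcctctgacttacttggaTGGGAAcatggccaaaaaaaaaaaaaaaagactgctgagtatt
Plac8, chr5:100572246-100572455, minus strand: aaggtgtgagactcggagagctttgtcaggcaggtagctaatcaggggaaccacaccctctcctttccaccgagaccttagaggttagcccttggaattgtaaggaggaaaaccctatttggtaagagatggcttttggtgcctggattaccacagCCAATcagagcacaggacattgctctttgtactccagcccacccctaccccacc
Cd55, chr1:130462745-130462994, minus strand: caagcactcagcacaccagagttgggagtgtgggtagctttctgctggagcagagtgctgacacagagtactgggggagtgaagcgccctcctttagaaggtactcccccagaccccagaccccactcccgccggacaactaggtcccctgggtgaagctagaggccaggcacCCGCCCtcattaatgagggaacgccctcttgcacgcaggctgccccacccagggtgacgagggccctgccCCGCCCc

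Counted back from the start site, the RBPJ core lay at -220 to -215 in Cr2 and at -43 to -38 in Cd36. It was not found in the windows shown for Plac8 and Cd55, and 21.6% of 32851 RefSeq promoter windows of 250 bases hold it. The CCAAT box was found in Cd36 and Plac8, and in 33.8% of all windows. Cr2, Cd36 and Cd55 each held 2 GC boxes, and 32.7% of all windows hold at least 1. None of the 4 genes had the octamer, which 1.6% of windows hold. A match describes the letters and not binding, and a link between any motif and the direction of a gene was not tested.

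Of the 6 genes, 5 had more fragments in q1 and 1, Cd55, had more in q2, while 49.8% of all 9582 genes were higher in q1. Cd1d1 was the member that reached 1.5-fold toward q1, a size that 1.58% of genes reached in that direction. Cd55 was the member that reached it toward q2, where 3.39% of genes did. None reached 2-fold, as 2.28% of genes did in either direction. The same 2 members differed by more than 2 SD, Cd1d1 toward q1 as did 2.07% of genes, and Cd55 toward q2 as did 4.12%. The ranges of 1 SD around the columns did not overlap for Cd1d1, Plac8 and Cd55, against 11.1% of all genes, and they overlapped for Cr2, Cd36 and Tm6sf1. All 6 members together took 0.661% of the fragments in q1 and 0.578% in q2, most of it from Cr2.

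**Figure D1:**
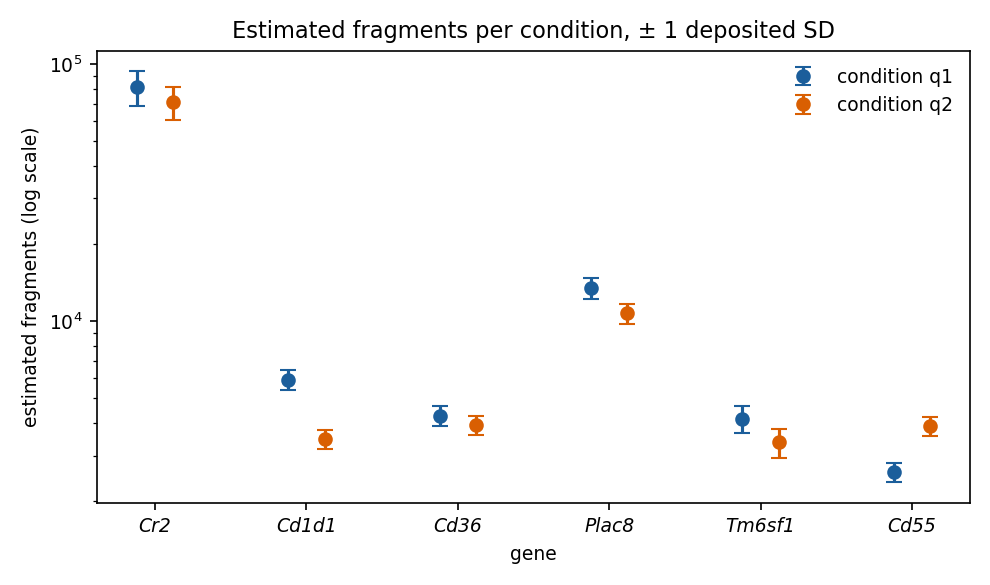
Estimated fragments of the 6 genes on a log axis, with blue points for q1 and orange points for q2, and bars of 1 deposited SD. The bars of Cd1d1, Plac8 and Cd55 do not overlap between columns, and Cd55 is the gene that is higher in q2.

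Cr2 (ENSMUSG00000026616, chromosome 1, 195136811 to 195176716, minus strand, GRCm38) was among the most abundant transcripts, at rank 4 of all genes by fragments in each column. It had 81167 ± 12378 fragments in q1 against 70851 ± 10172 in q2. The column ranges overlapped, with a log2 ratio of -0.20 ± 0.30; q2 minus q1 was -0.644 of its SD. With the estimates treated as counts, the Clopper-Pearson 95% interval for counting error spans -0.21 to -0.18, far narrower than the deposited SD. The direction was not kept under 1 alternative: correction for GC content, transcript length and mean count gave 0.0040, and correction for GC content and length alone gave -0.27. Few genes are as abundant as Cr2, so the fit on mean count is weakly held at its level.

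Cd81, the tetraspanin of the CD21 coreceptor, had 4544 ± 396 fragments in q1 against 3754 ± 329 in q2, with a log2 ratio of -0.28 ± 0.18. Without Cr2, 10 of the 17 genes listed as coreceptor, its signalling and complement receptors passed the minimum, of which 2 were higher in q1 and 8 in q2, with a median of 0.09. The largest ratios in that list belonged to Cd93, a receptor of immature B cells and myeloid cells, at 2.19 ± 0.42, and Itgax (CD11c), at 1.13 ± 0.36, both of which passed the minimum only through q2. Itgam (CD11b), a complement receptor chain shared with myeloid cells, stood at 0.49 ± 0.31. C3ar1, C5ar1 and Vsig4, complement receptors of myeloid cells, each had fewer than 3 fragments in both columns.

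Cd1d1 (ENSMUSG00000028076, chromosome 3, 86995834 to 86999441, minus strand) differed most between the columns among the 6. It had 5917 ± 511 fragments in q1 against 3468 ± 299 in q2, and the ranges did not overlap. The log2 ratio was -0.77 ± 0.18, a 1.71-fold difference, and q2 minus q1 was -4.13 of its SD. Among 9582 genes it ranked 79 toward q1 by ratio and 31 by the difference in SD units. The ratio was -0.78 after correction for GC content, length and mean count.

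Cd1d2, the neighbouring copy of Cd1d1, had 109.6 ± 19.5 fragments in q1 against 67.3 ± 14.3 in q2, with a log2 ratio of -0.70 ± 0.40. This is close to the ratio of Cd1d1, but the pair cannot be fully separated by sequence. Their coding sequences are 96.7% identical over 1005 aligned bases, and 25.8% of the 50-base windows of the longest coding Cd1d1 transcript also occur in Cd1d2. The first 90 coding bases of each, from GENCODE M21, are shown to let the pair be compared, with the 3 differing bases in capitals.
Cd1d1: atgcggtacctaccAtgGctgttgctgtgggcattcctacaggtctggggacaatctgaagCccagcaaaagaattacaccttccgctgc
Cd1d2: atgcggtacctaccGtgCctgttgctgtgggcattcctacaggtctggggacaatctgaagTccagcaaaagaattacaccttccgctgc
How the authors' counting treated fragments that fit both copies is not given in the sources used here. In each column the fragments listed for Cd1d2 were fewer than the SD of the Cd1d1 count. That listed number rests on the same unknown treatment, and the part of Cd1d2 in the Cd1d1 difference was not tested.

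The other genes of the lipid presentation pathway were mixed in direction. Without Cd1d1, 20 of 23 listed genes passed the minimum, 8 of them higher in q1 and 12 in q2, with a median log2 ratio of 0.03. Of these, 2 reached 1.5-fold toward q1, Gla and Cd1d2 (which passed the minimum only through q1), and 1, Slamf1, reached it toward q2. B2m, the light chain that pairs with CD1d, had 30404 ± 3255 fragments in q1 against 31118 ± 3334 in q2, with a log2 ratio of 0.03 ± 0.22. Gla, the lysosomal alpha-galactosidase that trims glycolipid antigens, was the gene of the list with the largest ratio toward q1, with 841 ± 94.5 and 380 ± 48.7 fragments and a log2 ratio of -1.14 ± 0.25. Psap, the precursor of the saposins that load lipids onto CD1d, stood at -0.32 ± 0.22. Slamf1, a receptor of the SLAM family, stood at 1.17 ± 0.25 with 233 ± 32.0 and 526 ± 57.4 fragments.

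Cd36 (ENSMUSG00000002944, chromosome 5, 17781690 to 17888801, minus strand) was the member with the smallest uncorrected ratio. It had 4288 ± 368 fragments in q1 against 3938 ± 341 in q2, with overlapping ranges and a log2 ratio of -0.12 ± 0.18. Correction for GC content, length and mean count gave -0.25, and Cr2, at 0.0040, was then the member with the smallest ratio. Pou2f2 (OCT2), a B cell transcription factor known to be needed for Cd36 expression in B cells, was near equal at 5122 ± 442 and 5037 ± 434 fragments, a log2 ratio of -0.02 ± 0.18. Of the other 21 scavenger receptor and lipid handling genes listed, 11 passed the minimum, 7 higher in q1 and 4 in q2, with a median of -0.02 and none at 1.5-fold. Among them Abcg1, a cholesterol exporter, stood at -0.25 ± 0.18, and Abca1, another, at 0.20 ± 0.18. The relatives of CD36 were scarcer in fragments, with Scarb1 at 193 ± 28.3 and 206 ± 29.4 and Scarb2 at 523 ± 57.0 and 551 ± 59.4 in q1 and q2.

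Macrophages, platelets and endothelium also express Cd36, and the fragments of their markers ranged widely. The 20 macrophage and monocyte markers together had 6955 (q1) and 4753 (q2) fragments. Mpeg1, which B cells also express, gave 5219 ± 451 and 3603 ± 311 of these. Per kilobase of the longest coding transcript Mpeg1 had 1204 and 831, below Cd36, at 1261 and 1159, in both columns. The other 19 summed to 1737 and 1150, ranging from 4.16 to 212 in q1 and from 0.657 to 208 in q2, and none was at 0 in both columns. Of those 19, 16 were higher in q1, among them Csf1r, the receptor for colony-stimulating factor CSF1, with 188 ± 28.8 and 78.8 ± 16.2 fragments. Emr1 (F4/80) went the other way, with 85.8 ± 17.0 and 145.9 ± 23.9, as did Ly6c2, with 59.4 ± 13.4 and 208 ± 30.3. Each of the 8 macrophage markers past 1.5-fold, 6 toward q1 and 2 toward q2, passed the minimum only through its higher column, so the minimum bears on that count. The 10 platelet markers summed to 304 and 476 fragments, mostly from the integrin chain Itgb3, while Pf4 had 0 and 0.440 and Ppbp 0.240 and 1.62. The 12 endothelial and stromal markers summed to 3582 and 3684, of which Pecam1, also made by leukocytes, gave 3415 and 3537, while Cdh5 had 79.9 ± 15.9 and 61.5 ± 13.5 and Kdr 4.74 and 1.08. The part of these cells in the differences of Cd36 and of the other members was not tested.

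Plac8 (ENSMUSG00000029322, chromosome 5, 100553725 to 100572245, minus strand) had 13459 ± 1232 fragments in q1 against 10704 ± 960 in q2. The ranges did not overlap, but the log2 ratio of -0.33 ± 0.18 stayed under 1.5-fold, and q2 minus q1 was -1.76 of its SD. By ratio it ranked 419 of 9582 toward q1. A lower rule, a ratio of 5 to 4 that 4.59% of genes reached toward q1, took in Plac8 beside Cd1d1. Its relatives Plac8l1 and Cnfn had 0 fragments in q1, and 0.206 and 0 in q2. No 50-base window of its longest coding transcript occurs in another gene, which also holds for Cr2 and Cd36.

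Tm6sf1 (ENSMUSG00000038623, chromosome 7, 81859001 to 81884434, plus strand) had 4171 ± 506 fragments in q1 against 3377 ± 442 in q2, with overlapping ranges and a log2 ratio of -0.30 ± 0.26. Of the 6 members it shares the most sequence with another gene. Its last exon runs into Hdgfl3, called Hdgfrp3 in the table, a gene on the opposite strand that encodes a growth factor-like nuclear protein. The longest coding transcripts of the pair share 857 bases (chromosome 7, 81883215 to 81884071), out of 2226 in Tm6sf1 and 5887 in Hdgfl3, and 37.3% of the 50-base windows of Tm6sf1 occur in Hdgfl3. Whether strand was used in counting is not given in the sources used here, and without it fragments of the shared stretch cannot be assigned. A further 5.51% of the 50-base windows of Tm6sf1 occur in Gm45867, an annotated gene on the same strand, where strand would not help. Hdgfrp3 had 3840 ± 485 fragments in q1 against 3375 ± 441 in q2, almost the values of Tm6sf1, with a log2 ratio of -0.19 ± 0.26.

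The deposited errors of Tm6sf1 and Hdgfrp3 were both high for their counts. For most genes the SD as a percent of the count follows the count alone. It was 8.64% in q1 for Cd1d1, 8.57% for Cd36, 9.15% for Plac8 and 8.73% for Cd55, each close to the running median of genes of like count. Tm6sf1 stood at 12.1% in q1 and 13.1% in q2, or 1.41 and 1.52 times that median. Hdgfrp3 stood at 12.6% and 13.1%. The part of the shared stretch in the counts and errors of the pair was not tested. In q1 6.38% of genes and in q2 5.24% lay as far above their median as Tm6sf1. Cr2 had 15.3% and 14.4%, but too few genes are as abundant for its running median to be a guide.

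**Figure D2:**
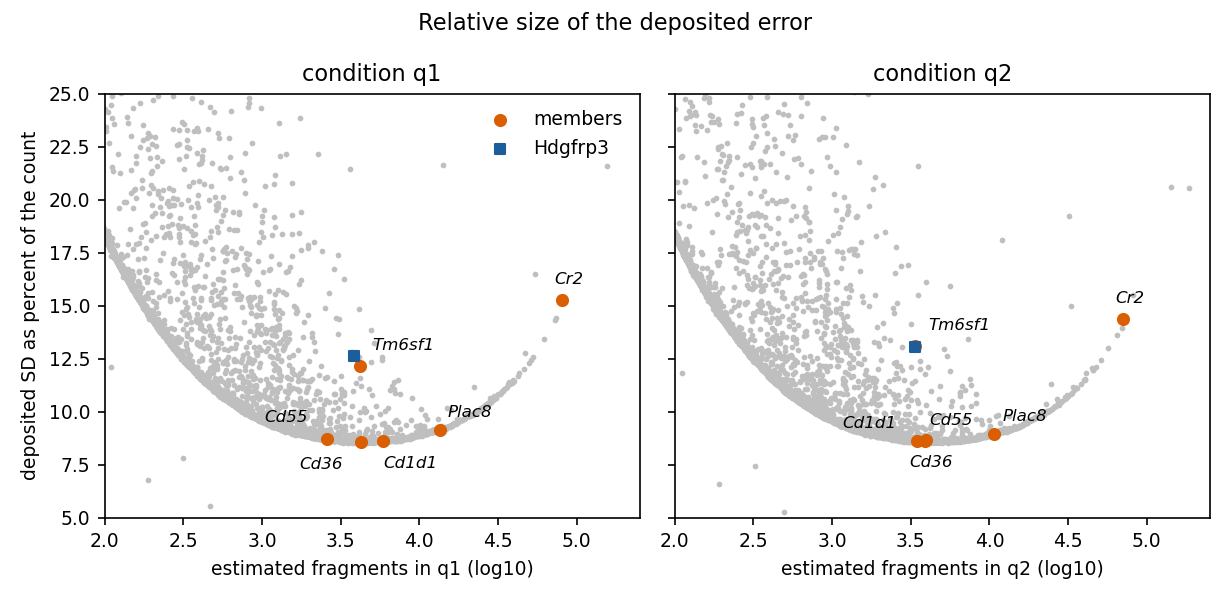
Deposited SD as a percent of the count against log10 fragments, for q1 (left) and q2 (right), with all genes of at least 100 fragments in grey, members in orange and Hdgfrp3 as a blue square; the vertical axis runs from 5 to 25 and genes beyond it are not drawn. Most genes form a narrow lower curve on which Cd1d1, Cd36, Plac8 and Cd55 lie, while Tm6sf1 and Hdgfrp3 lie above it, side by side, and Cr2 lies at the right end, where few genes are as abundant.

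The relatives of Tm6sf1 in the sterol isomerase-like family were low in fragments, with Tm6sf2 at 18.5 ± 6.2 in q1 and 13.4 ± 5.2 in q2, and Ebp, a sterol isomerase, at 452 ± 51.1 and 470.5 ± 52.7. Of 9 genes listed for the sterol and lysosomal context of TM6SF1, 8 passed the minimum, 3 higher in q1 and 5 in q2, with a median of 0.07 and none at 1.5-fold. Npc1, the lysosomal cholesterol transporter, had the largest ratio at -0.26 ± 0.24.

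Cd55 (ENSMUSG00000026399, chromosome 1, 130439027 to 130462744, minus strand) was the exception in direction. It had 2586 ± 226 fragments in q1 against 3908 ± 337 in q2, and the ranges did not overlap. The log2 ratio was 0.60 ± 0.18, a 1.51-fold difference of 3.26 SD, with rank 323 of 9582 toward q2 by ratio and 184 by SD units. It passed 1.5-fold narrowly: corrected for GC content, length and mean count, the log2 ratio was 0.50 and the fold fell short of that size. Its near copy Cd55b, called Daf2 in the table, had 3.56 and 5.39 fragments, and 13.3% of the 50-base windows of Cd55 occur in it. A further 2.17% occur in Gm16083, an antisense gene over Cd55.

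CD55 acts beside other regulators of complement on the cell surface, of which few were abundant. Cr1l (CRRY), the mouse regulator with a related function, had 1321 ± 122 fragments in q1 against 1401 ± 128 in q2, with a log2 ratio of 0.08 ± 0.19. Cd59a, an inhibitor of the membrane attack complex, had 134 ± 22.1 and 83.9 ± 16.4, a log2 ratio of -0.67 ± 0.36. It passed the minimum only through q1, so the minimum bears on its direction. Cd46 had 20.9 ± 6.8 and 25.7 ± 7.7. The soluble regulators Cfi and C4bp each had fewer than 1 fragment in both columns.

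**Figure D3:**
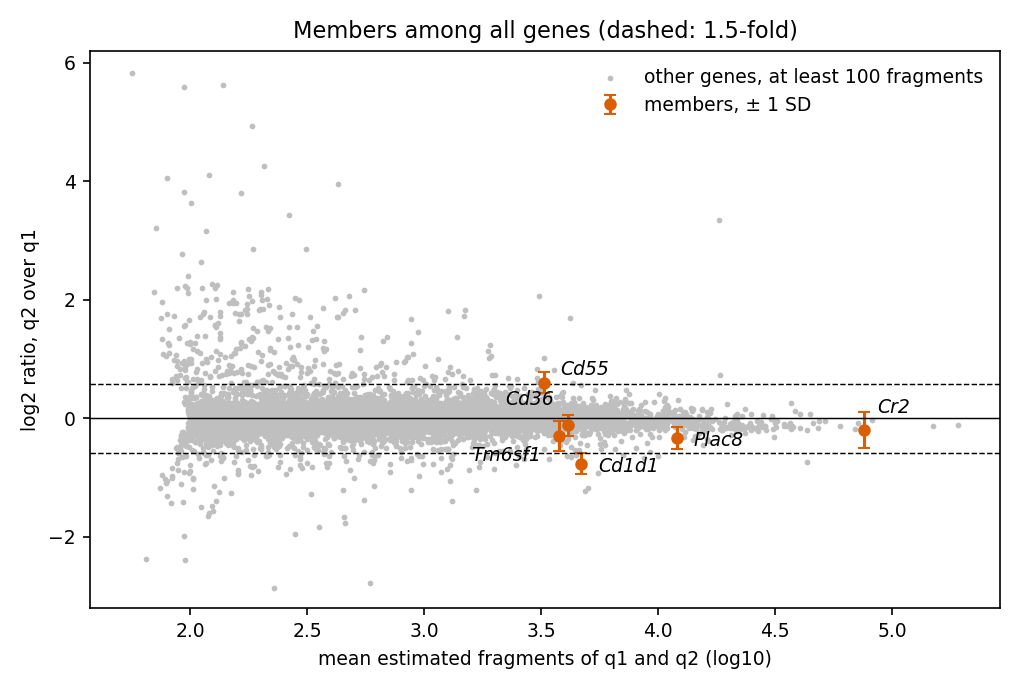
Log2 ratio of q2 over q1 against the mean of the columns (log10 fragments) for the 9582 genes of at least 100 fragments (grey), with the 6 members in orange and bars of 1 SD. Cd1d1 lies below the lower dashed line of 1.5-fold, Cd55 lies on the upper one, and the other 4 lie between the lines and below 0.

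Per kilobase of the longest coding transcript, Cr2 and Plac8 were the most abundant members and Cd1d1 the third in both columns. Cr2 had 13066 ± 1993 fragments per kilobase in q1 and 11406 ± 1637 in q2. Plac8 had 10996 ± 1007 and 8745 ± 784, a level that overlapped that of Cr2 in q1 but not in q2. Cd1d1 had 3041 ± 263 and 1782 ± 154 per kilobase.

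The order of the last 3 members differed between columns. In q1 it was Tm6sf1 at 1874 ± 227, Cd36 at 1261 ± 108 and Cd55 at 1021 ± 89.2 per kilobase, with no overlap between neighbours. In q2 it was Cd55 at 1543 ± 133, Tm6sf1 at 1517 ± 199 and Cd36 at 1159 ± 100.5, where Cd55 overlapped with both Cd1d1 and Tm6sf1. When all annotated exons were used as length, Cr2, Plac8 and Cd1d1 kept their places and Cd36 became the fourth member in each column, so the place of Tm6sf1 depends on the length chosen.

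The genes most like each member in both mean level and ratio were named by distance over the log2 mean count and the log2 ratio, with 2 columns as the only points. They were Malat1 and Ddx5 for Cr2, Ptpn14 and Zc3h12c for Cd1d1, Phc3 and Ccnl1 for Cd36, Cd97 and H2-Q4 for Plac8, Clic4 and Ube2r2 for Tm6sf1, and Fam107b and Pdia6 for Cd55. Ptpn14, a phosphatase, is itself on the list of other marginal zone genes, with 5390 and 3516 fragments. The distance for Cd1d1 was 0.172, the largest of the nearest ones, and that for Cd36 was 0.0090.

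Lists of other B cell genes were set beside the members. These lists were chosen with earlier results of these data known, so their directions only describe the listed genes. Of 20 other marginal zone genes that passed the minimum, 16 were higher in q1, against 49.8% of all genes. Of those 16, 7 reached 1.5-fold, a size that 1.58% of all genes reached toward q1. The median was -0.39 against 0.00 for all genes. Cd9 stood at -0.86 ± 0.19 and Tbc1d9 at -0.85 ± 0.18, in the range of Cd1d1, while Notch2, at -0.05 ± 0.19, was near equal as Cd36 was. Of 13 follicular B cell genes, 10 were higher in q2 and 4 reached 1.5-fold, which 3.39% of all genes did toward q2. Their median was 0.35, and Fcer2a (CD23) had the largest ratio at 1.73 ± 0.20. Cd55 had the direction of most listed follicular genes and not of most other marginal zone genes. That direction is not particular to follicular genes. It was also that of 8 of the 10 coreceptor and complement receptor genes without Cr2. Of these, 2 passed the minimum only through q2, and others, such as Pik3r1 at 0.01 ± 0.18, lay near 0. Most germinal center and plasma cell markers below had it too, some of which passed the minimum only through q2. With 49.8% of all genes higher in q1, either direction is common.

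Genes of all B cells differed little: 6 of 7 were higher in q1, none at 1.5-fold, with a median of -0.10. Their ratios ran from -0.15 to 0.13. Cd36, at -0.12 ± 0.18, lay inside that range. Cr2, at -0.20 ± 0.30, was within 1 SD of it and is not set apart from these genes. Cd22 and Ebf1 stand both in this list and in that of other marginal zone genes. Markers of other B cell states were mostly higher in q2, where 3.39% of all genes reached 1.5-fold. All 10 germinal center markers were at least 1.5-fold higher there, and 9 of 10 plasma cell markers were higher (median 1.19, 6 at 1.5-fold). Of these, 7 germinal center markers and 1 plasma cell marker passed the minimum only through q2. The germinal center markers summed to 1929 and 8121 fragments, most of them from Mki67, a gene of all dividing cells, with 1190 ± 112 and 4990.5 ± 455. The plasma cell markers summed to 20849 and 58191, and Igj, the immunoglobulin J chain, carried most of that difference with 3234 ± 352 and 33006 ± 4941. Of 11 T and NK cell markers in the table, Lck passed the minimum, at 0.39 ± 0.22, and the list summed to 835 and 1100 fragments. Dendritic cell and neutrophil markers summed to 172 and 249. The part of these cells in the differences of Cd1d1 and Cd55 was not tested.

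**Figure D4:**
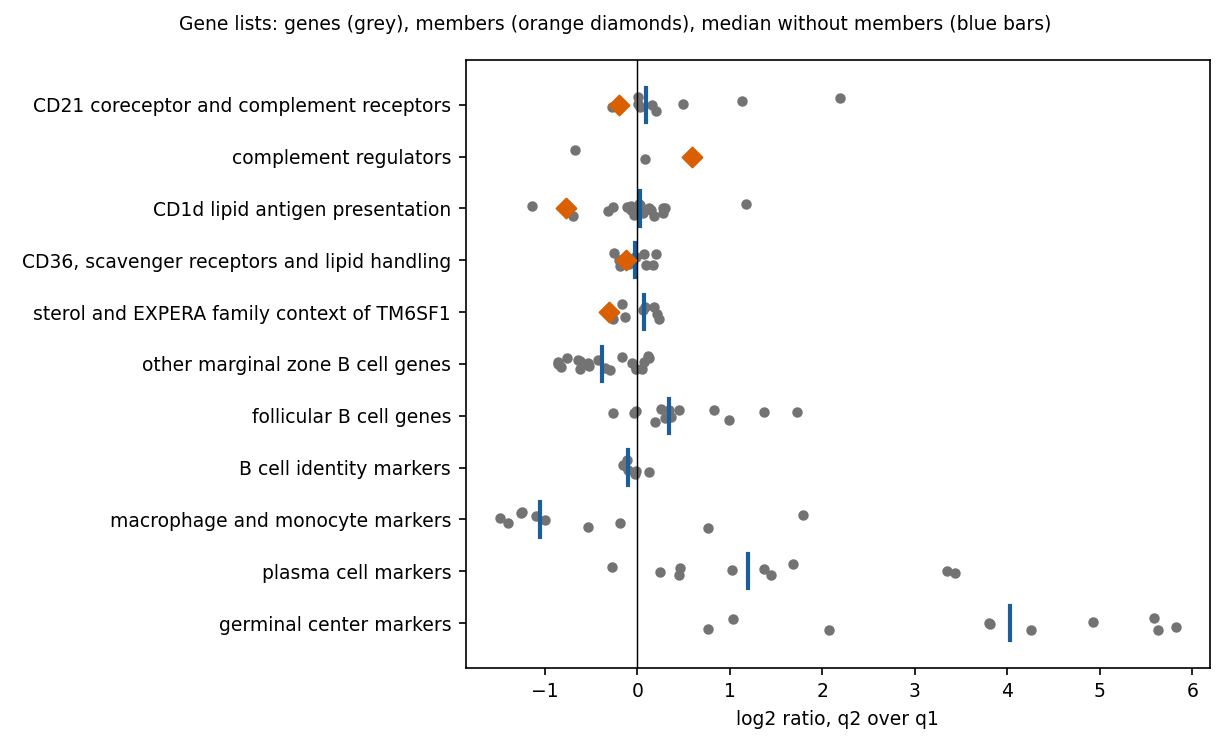
Log2 ratios of q2 over q1 for genes of at least 100 fragments in 11 lists, with each grey point a gene, orange diamonds the members and blue bars the median of the genes that are not members, drawn for lists of at least 5 such genes. Cd1d1 lies to the left of most lipid presentation genes, Cd55 to the right of both other complement regulators, and Cr2 and Cd36 within the cloud of their lists. The complement regulator Cd59a passed the minimum only through q1.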

How the data were processed

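Per the labels' protocols, total RNA went into Illumina TruSeq RNA libraries. The submitters' processing notes name mm10, Cuffdiff 2.2.1, TopHat2 2.0.14 and cutadapt 1.8.1, without annotation or settings. The file headers name a count per gene for conditions q1 and q2 and a variance for each, whose isoform assignment part was 0 for every gene. The counts are taken here as estimated fragments. The headers name no library and do not say how libraries were combined into 1 value. The scaling between columns is not stated, and neither is whether a variance refers to 1 library or to a mean.

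Log2 ratios (q2 over q1) used a pseudocount of 1, so those of low genes are understated, and their SD is the first-order one that the variances imply. No test was made. A difference of at least 1.5-fold among the 9582 genes with 100 fragments or more in the higher column was the size rule. The corrected ratio is the residual of a cubic fit over 9529 genes. Intervals cover counting error only and treat the estimates as counts. Of the q1 values above 0, 2.12% were whole within 0.01, so the intervals are approximate. Positions are from GENCODE M21 (GRCm38), where 22694 symbols were found as written and 929 by synonym. The members and the 16 gene lists were chosen with earlier results of these data known; genes named from a list were its 4 largest ratios, the members' relatives and partners, and the most abundant markers, and other names were chosen after their values were seen. Calculations used Python 3.11.15, numpy 2.4.6 and pandas 2.3.3 and were tested on simulated data. Some listed genes are not reported here.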

Additional observations from a re-analysis of the deposited data

How the results depend on the processing

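No paired analysis was possible because there is 1 value for each condition, so leaving out a library was not possible either. Of 36 recomputed ratios of the members, 29 stayed inside their counting interval. Pseudocounts of 0 and 10 and median ratio scaling can hardly move ratios at these counts. For them, staying inside was fixed in advance, so the 29 do not measure stability. The ratios that left the interval came from equal column totals, for Cr2, and from the corrections below. The ratio of Cr2 was -0.18 with equal column totals, 0.0040 (a changed direction) when corrected for GC content, length and mean count, and -0.27 when corrected for GC content and length alone. The fit on mean count rests on few genes at the level of Cr2. In the same 2 corrections Cd36 stood at -0.25 and -0.26 and Cd55 at 0.50 and 0.48. The second correction was chosen after seeing the data; the causes were not tested. Members at least 1.5-fold higher in q1 numbered 1, against 0 at 2-fold and 2 with the lower rule of 5 to 4. Those higher in q2 numbered 1, against 0 at 2-fold and 0 under either correction. Members of any size higher in q2 became 2 in the correction with mean count, through Cr2. List medians were set against the counting error of the 1 gene at the middle of each list, which is not the error of a median. Of 84 list medians, 77 moved by less than this and 6 by more, though median ratio scaling could hardly move any of them. That of the other scavenger and lipid handling genes reversed to 0.021 in the correction with mean count. At the depth of these columns the counting intervals of the members were narrower than their deposited SD.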
